A study of Mus musculus with 4 samples.

Results

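The cells described here were the endothelial cells of mouse lung tumors that carried at least 1 transcript of Vwf, the gene for von Willebrand factor. They were chosen from single-cell RNA sequencing of viable cells by their own counts of unique molecular identifiers (UMIs, each a tag for 1 captured transcript). A cell was a member if it had at least 200 detected genes, at most 13.4% mitochondrial UMIs, at least 4 UMIs summed over the endothelial genes Cdh5, Cldn5, Ramp2 and Egfl7, at least 1 Vwf UMI, at most 1 UMI summed over Car4 and Ednrb, which mark the thin gas-exchange capillary cells called aerocytes, and 0 UMIs of the leukocyte gene Ptprc. The rule found 418 members among 19892 cells that passed the first 2 limits, out of 20351 cells in all, which was 2.10% of the cells kept (exact 95% interval 1.91% to 2.31%). The classes set beside them were the 1036 endothelial cells with 0 Vwf UMIs under otherwise equal limits, here called Vwf-negative, the 202 Vwf-free endothelial cells with at least 2 UMIs of Car4 and Ednrb, called aerocyte-like, and all 19474 other kept cells. A further 42 endothelial cells held both Vwf and at least 2 UMIs of Car4 and Ednrb and belonged to none of the 3 endothelial classes.

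The tumors came from 4 female mice on a mixed background that includes C57BL/6J, 2 of each cohort. All 4 carried Lkb1XTR/XTR, a gene-trap allele that Cre switches off and Flp recombinase can restore, and Rosa26LSL-tdTomato, a fluorescent reporter of Cre. The Restored cohort also carried FLPo-ERT2, a Flp recombinase that works only with tamoxifen, while the Non-Restored cohort did not. Tumors grew for 16 weeks after Cre lentivirus was given through the trachea, and both cohorts received 4 mg doses of tamoxifen for the last 2 weeks. Lkb1 restoration was thus the study's contrast, but the deposited matrix pools the cells with no barcode or mouse label, so no cell could be given to a mouse or cohort. The members therefore form 1 sample, no comparison between Restored and Non-Restored was made, and no test of significance was possible. All intervals below are exact 95% intervals that cover counting error only, and none of them covers variation between mice.

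Von Willebrand factor is a large glycoprotein that binds platelets at sites of vessel injury and carries coagulation factor VIII. Endothelial cells store it in rod-shaped Weibel-Palade bodies together with P-selectin, and release both on stimulation. In the lung the protein is abundant in veins and arteries and sparse in the capillaries of the alveolar wall. Veins, arteries, capillaries and lymphatic vessels are lined by endothelial cells with distinct gene programs: NR2F2 specifies venous identity, Notch signalling and SOX17 maintain arteries, GPIHBP1 and KIT belong to general capillary cells, and PROX1 defines lymphatic endothelium.

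The members carried endothelial genes outside the rule, but the data bore out the name larger-vessel endothelium only in part. All 11 pan-endothelial genes that the rule did not use were detected in the members, 414 of 418 members had a UMI of at least 1 of them, and their summed level was 3991 CPM (UMIs of the genes as a share of all UMIs of the class, scaled to counts per 1e6), against 411 CPM in all other kept cells. Genes of veins were higher in the members than in Vwf-negative cells, but only 153 members (36.6%, 32.0% to 41.4%) had 2 or more UMIs of the vein list. Genes of general capillary cells were still abundant, with 3433 CPM for the list in the members against 4022 CPM in Vwf-negative cells and a UMI of the list in 411 of 418 members. Aerocyte-like cells had 3571 CPM and a UMI of the list in 195 of 202 cells. The presence of the list therefore did not separate these endothelial classes. The class is therefore called by its rule, Vwf-positive endothelial cells.

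Vwf itself chose the members, so its values are a description. The members held 1102 Vwf UMIs in all, with 1 in the lowest member, 2 in the median member and 20 in the highest. There were 187 members with 1 Vwf UMI, 170 with 2 to 4 and 61 with 5 or more. Among 17611 kept cells with 0 UMIs of the 4 endothelial genes, 449 (2.55%, 2.32% to 2.79%) also had a Vwf UMI at a median depth of 1994 UMIs, against 418 of 1454 (28.7%, 26.4% to 31.2%) of endothelial cells with at most 1 UMI of Car4 and Ednrb. A single Vwf UMI can thus be found in cells of other types, and the values below are also given by the number of Vwf UMIs.

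Members just inside and just outside each limit were alike in some respects and not in others. The 187 members with 1 Vwf UMI had a vein list level of 564 CPM, and the 1036 cells with 0 had 322 CPM. The 27 members with 4 endothelial UMIs had 468 CPM of the vein list, and the 13 cells with 3 that met the other limits had 669 CPM. The 38 members with 1 UMI of Car4 and Ednrb had 755 CPM, and the 13 cells with 2 had 1427 CPM. The sets of 13 cells are small, and no interval was computed for them. Among all 42 Vwf-positive cells with at least 2 UMIs of Car4 and Ednrb, 1 cell held 37.5% of the vein list UMIs. Whether that cell is among the 13 was not examined. The 16 cells with 1 Ptprc UMI that met the other limits had 698 CPM at a median of 3851 UMIs, against 1183 CPM at a median of 2164 UMIs in all members.

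Depth differed between the classes. The members had a median of 2164 UMIs per cell (525 to 24258) and 1134 genes, Vwf-negative cells a median of 1806.5 UMIs (501 to 15226) and 975 genes, and aerocyte-like cells 2144.5 UMIs (756 to 23472) and 1140 genes. The median mitochondrial share was 3.90% in the members, 3.86% in Vwf-negative cells and 3.84% in aerocyte-like cells. Levels are the UMIs summed over a class relative to all UMIs of that class, so 0 UMIs over the class allows up to 2.87 CPM in the members, 1.47 CPM in Vwf-negative cells and 5.21 CPM in aerocyte-like cells (3 UMIs over the class). Shares of cells with a UMI are given after each cell was thinned at random to 1000 UMIs, which left out 26 members, 107 Vwf-negative cells and 5 aerocyte-like cells that were shallower. The 42 cells with both Vwf and Car4 or Ednrb were deeper, at a median of 6805.5 UMIs. They had 9252 CPM of epithelial genes against 942 CPM in the members. However, 1 of the 42 cells held 3605 of their 3628 epithelial UMIs, and 1 member held 83.5% of the members' UMIs. The 42 cells are counted among all other kept cells.

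The genes on which the results turn lie on 5 chromosomes (GENCODE vM21, mm10). Vwf is at chr6:125546774-125686679 on the plus strand. Nr2f2, a nuclear receptor that specifies veins, is at chr7:70351944-70366735 on the minus strand, and the gene B130024G19Rik on the plus strand overlaps it. Ackr1, an atypical chemokine receptor of venules, is at chr1:173331886-173333750 on the minus strand, where it overlaps Cadm3 on the same strand. Selp, which encodes P-selectin, is at chr1:164115264-164150026 on the plus strand, with Gm16587 and Gm16548 on the minus strand. Vcam1, the adhesion molecule for leukocyte integrins, is at chr3:116109949-116129688 on the minus strand, with Gm43109 on the plus strand, Cpe, the prohormone-processing carboxypeptidase E, at chr8:64592542-64693054 on the minus strand, and Vegfc, a lymphatic growth factor, at chr8:54077606-54187096 on the plus strand.

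Of 8 such genes looked up, 4 matched the RefSeq upstream sequences of build GRCm38.p6, and 2 are shown because Nr2f2 encodes a factor that binds direct repeats of AGGTCA and Selp was among the 10 genes that led the comparison below. The 250 bases before the start were searched on both strands for the single letters AGGTCA, whose reverse complement TGACCT cannot overlap it, and capitals mark a match. The Selp stretch, chr1:164115014-164115263 on the plus strand, held 1 match on the reverse strand and none forward. The Nr2f2 stretch, chr7:70366747-70366996 on the minus strand, held none. The Vegfc stretch, chr8:54077282-54077531 on the plus strand, is not shown and also held none. The letters occur in 14.0% of the 32851 windows of this length in the table, so the match is a description of the sequence and not a binding site.
Selp: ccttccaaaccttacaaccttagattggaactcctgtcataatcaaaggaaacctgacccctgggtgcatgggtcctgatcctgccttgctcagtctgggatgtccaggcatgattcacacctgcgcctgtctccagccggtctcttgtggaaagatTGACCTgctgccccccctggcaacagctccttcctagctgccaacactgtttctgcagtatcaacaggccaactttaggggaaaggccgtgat
Nr2f2: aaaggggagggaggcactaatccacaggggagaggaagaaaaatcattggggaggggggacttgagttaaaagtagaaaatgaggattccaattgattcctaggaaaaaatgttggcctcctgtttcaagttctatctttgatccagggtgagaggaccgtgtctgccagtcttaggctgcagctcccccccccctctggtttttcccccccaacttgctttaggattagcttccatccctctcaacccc

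The vein list was higher in Vwf-positive cells, at 1183 CPM against 322 CPM in Vwf-negative cells, a log2 ratio of 1.88 (1.74 to 2.01). Of its 11 genes, 8 reached 50 CPM in either class and 7 of these were at least 2-fold higher, where 53 of 3308 genes tested (1.60%) were at least 2-fold higher in the members over all features. The list was chosen with earlier results of these data known, and the 8 genes are among the 3308, so the count is a description. None of the 8 was at least 2-fold lower, against a background of 0.393%. These background shares, 1.60% higher and 0.393% lower, also apply to each list set against Vwf-negative cells below. The median log2 ratio of the 8 was 2.13, and the median of all 3308 genes was 0.0028. The UMIs were spread over cells: 248 of 418 members had at least 1 and the top member held 5.82% of them.

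Ackr1 was found in the members and in neither of the other endothelial classes. The members held 65 Ackr1 UMIs in 25 cells, at most 7 in 1 cell, while Vwf-negative and aerocyte-like cells held 0. Its 62.1 CPM (48.0 to 79.2) in the members was at least 42.3-fold higher than in Vwf-negative cells, against the limit of 3 UMIs over that class. Slc6a2, the noradrenaline transporter, which falls outside the naming rule and was chosen after its values were seen, followed the same pattern with 45 UMIs in 18 members, 1 UMI in Vwf-negative cells and 0 in aerocyte-like cells. In kept cells without endothelial UMIs each of these genes was found in 0.02% of cells. Those cells were chosen for lacking UMIs of the endothelial genes of the rule. Whether either gene was spread at a low level over the whole sample was therefore not tested.

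Nr2f2 was at 128 CPM (107 to 152) in the members, 24.5 CPM (18.2 to 32.2) in Vwf-negative cells and 29.5 CPM in aerocyte-like cells, a log2 ratio of 2.39 (1.91 to 2.89) to Vwf-negative cells. At equal depth 9.95% of members (7.17% to 13.3%) had an Nr2f2 UMI, against 0.969% of Vwf-negative cells and 0.375% of cells without endothelial UMIs. Vcam1 was at 104 CPM in the members, 5.38 CPM in Vwf-negative cells and 0 UMIs in aerocyte-like cells, a log2 ratio of 4.28 (3.38 to 5.32). The top member held 28 of the 109 Vcam1 UMIs, and without the top cell of each class the ratio was 4.51. These genes were thus higher in the members by more than counting error, while most members showed no transcript of either.

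Cpe was at 186 CPM in 66 members and 18.1 CPM in Vwf-negative cells, where 16 cells held it, a log2 ratio of 3.36 (2.85 to 3.91). Vegfc was at 228 CPM in the members, 62.6 CPM in Vwf-negative cells and 36.5 CPM in aerocyte-like cells, with a log2 ratio of 1.86 (1.55 to 2.18) to Vwf-negative cells. At equal depth 16.1% of members had a Vegfc UMI, against 4.84% of Vwf-negative cells and 0.0790% of cells without endothelial UMIs. The remaining list members ranged from 0.19 for Ephb4, the receptor paired with arterial ephrin, to 4.70 for Car8 on the log2 scale, both chosen after their values were seen.

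**Figure D1:**
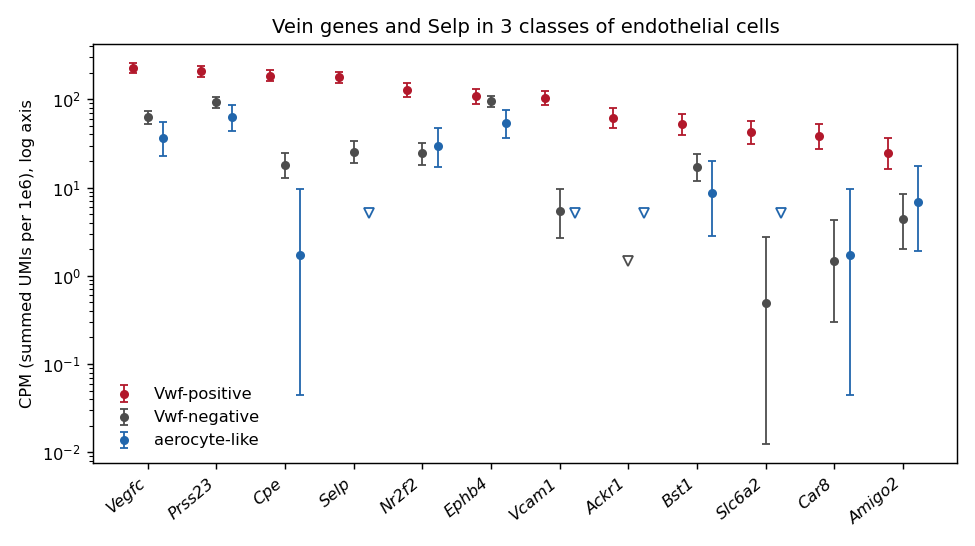
Summed UMIs of a class as CPM (log axis) of the 11 vein genes and Selp in Vwf-positive, Vwf-negative and aerocyte-like endothelial cells, with exact 95% Poisson intervals for counting error. Open triangles stand at the level that 0 UMIs allows. Vegfc, Cpe, Selp, Nr2f2, Vcam1 and Ackr1 lie above both other classes with intervals that do not overlap, whereas those of Ephb4 in Vwf-positive (108 CPM) and Vwf-negative cells (94.9 CPM) overlap.

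The artery list differed between the classes by less than counting error as a sum. It was at 4865 CPM in the members and 4886 CPM in Vwf-negative cells, a log2 ratio of -0.01 (-0.06 to 0.04). Of its 9 genes tested, 1 was at least 2-fold higher, against 1.60% of all genes tested. The call on the sum changed with the cells compared: the ratio was 0.13 (0.08 to 0.17) against all endothelial cells with 0 Vwf UMIs, 0.11 (0.05 to 0.16) without cells with 2 lymphatic UMIs and -0.18 (-0.24 to -0.11) with at least 2 Vwf UMIs. Cxcl12, a chemokine found in arterial and capillary endothelium, supplied 58.8% of the members' list UMIs and was at 2858 CPM in the members and 2906 CPM in Vwf-negative cells. Of the members, 87.6% had 2 or more UMIs of the list, as did 87.8% of Vwf-negative cells, so this limit did not separate the classes. Gja5, the gap-junction gene connexin 40 of large arteries, went against the sum. It was at 66.0 CPM (51.3 to 83.5) in 38 members, 20.1 CPM (14.4 to 27.2) in Vwf-negative cells and 6.94 CPM in aerocyte-like cells, a log2 ratio of 1.72 (1.14 to 2.31).

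Other arterial genes moved in both directions. Efnb2, the arterial ephrin, had a log2 ratio of 0.27 (0.06 to 0.47), Sox17, the arterial transcription factor, -0.34 (-0.50 to -0.18), and Unc5b, a netrin receptor, -0.40 (-0.89 to 0.06). Chosen after their values were seen, Dkk2 was at 36.3 CPM against 8.81 CPM and Bmx, a kinase of arterial endothelium, at 25.8 CPM against 14.2 CPM, both under the level needed to be counted. Some arterial genes were therefore higher in the members, some lower, and their sum was not.

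Among lymphatic genes the classes differed in opposite directions. Lyve1, a hyaluronan receptor of lymphatic and some venous endothelium, was at 303 CPM in 129 members, 86.6 CPM in Vwf-negative cells and 59.0 CPM in aerocyte-like cells, a log2 ratio of 1.81 (1.54 to 2.08). Ccl21a, the chemokine that lymphatic endothelium secretes, had 0 UMIs in the members and 557 UMIs in 14 Vwf-negative cells, which was at least 95.02-fold lower in the members. Flt4, the receptor of VEGF-C, was at 35.4 CPM against 60.2 CPM. Mmrn1, Reln and Nts also had 0 UMIs in the members, and Prox1, chosen after its values were seen, had 8 UMIs in 8 members against 27 UMIs in Vwf-negative cells. The list as a sum was at 347 CPM in the members and 454 CPM in Vwf-negative cells (log2 ratio -0.39, -0.57 to -0.21), and Lyve1 supplied 87.3% of the members' UMIs of it. The Vwf-negative class thus contains a few cells with strong lymphatic expression that the Vwf-positive class does not.

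General capillary genes were somewhat lower in the members, with a log2 ratio of -0.23 (-0.29 to -0.17) for the list and none of 7 genes tested past 2-fold in either direction. Kit, the stem cell factor receptor, was at 198 CPM against 289 CPM in Vwf-negative cells (log2 ratio -0.54, -0.78 to -0.31). Gpihbp1, which anchors lipoprotein lipase to the capillary wall, was at 1314 CPM against 1590 CPM (log2 ratio -0.27, -0.37 to -0.18), Sema3c, a guidance factor, had a log2 ratio of -0.39, and Itga1, a collagen-binding integrin subunit, -0.25. At equal depth 64.5% of members (59.6% to 69.3%), 71.4% of Vwf-negative cells (68.3% to 74.3%) and 0.151% of cells without endothelial UMIs had a Gpihbp1 UMI.

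The aerocyte list was at 317 CPM in the members and 342 CPM in Vwf-negative cells (log2 ratio -0.11, -0.30 to 0.08), with none of its 4 genes tested past 2-fold. Fibin, an aerocyte gene, had 0 UMIs in the members, 1 in Vwf-negative cells and 95 UMIs in 35 aerocyte-like cells, and Rprml also had 0 in the members. Emp2, a membrane protein of aerocytes, was at 68.8 CPM against 86.1 CPM in Vwf-negative cells, Prx, which encodes periaxin, at 69.8 CPM against 77.8 CPM, Cyp4b1 at 58.3 CPM against 53.8 CPM and Nckap5 at 93.7 CPM against 77.3 CPM. Nckap5 supplied 29.5% of the members' list UMIs and was lower in aerocyte-like cells, at 38.2 CPM, so it ran against the list there. With Nckap5 in the sum, the members and the Vwf-negative cells differed in the aerocyte list by less than counting error. The sum without Nckap5 was not computed. The rule had capped Car4 and Ednrb in both classes.

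**Figure D2:**
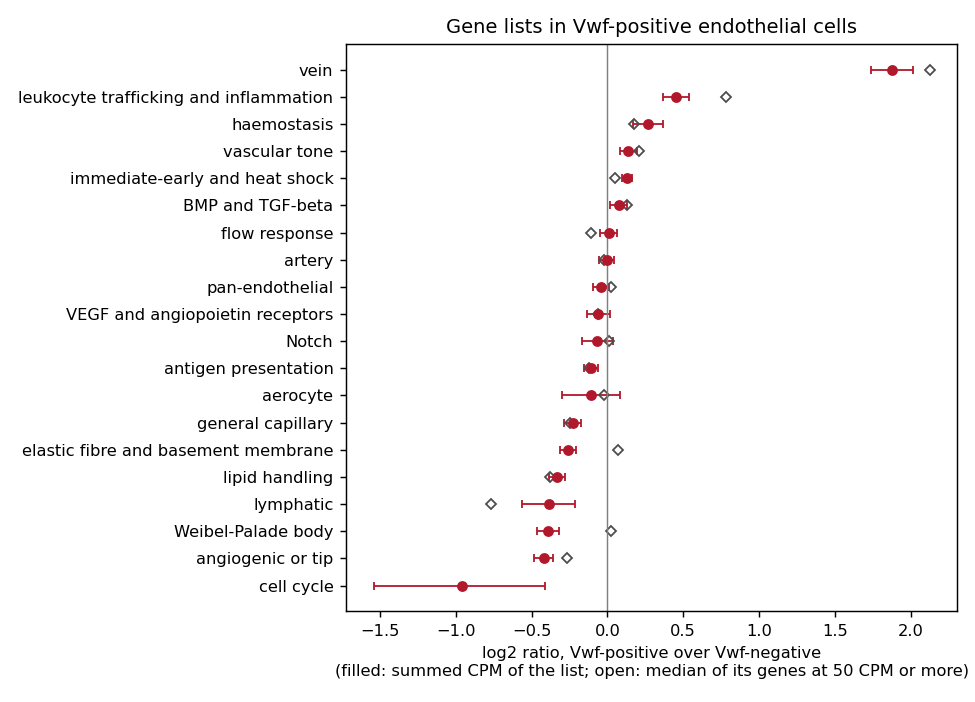
Log2 ratio of Vwf-positive over Vwf-negative endothelial cells for each list of endothelial or general genes, as the ratio of summed CPM with its exact 95% interval (filled) and as the median over the genes with at least 50 CPM in either class (open; the cell cycle list has none). The vein list stands at 1.88, the next list at 0.45, and the sum and the median have opposite signs for the Weibel-Palade body, elastic fibre and basement membrane, flow response, pan-endothelial and Notch lists.

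Members of the Weibel-Palade body pathway other than Vwf did not move together. The list of 15 genes was lower as a sum, 2032 CPM against 2661 CPM, a log2 ratio of -0.39 (-0.46 to -0.32). Yet the median of its 6 genes tested was 0.02, and 1 of them was at least 2-fold higher, against 1.60% of all genes tested. Igfbp7, a secreted binding protein found in these granules, supplied 60.0% of the members' UMIs and was at 1220 CPM against 2041 CPM (log2 ratio -0.74, -0.83 to -0.65), with 3533 CPM in aerocyte-like cells. Selp, the P-selectin stored beside von Willebrand factor, was in contrast at 179 CPM (154 to 206) in 53 members, 25.4 CPM (19.0 to 33.4) in 26 Vwf-negative cells and 0 UMIs in aerocyte-like cells, a log2 ratio of 2.81 (2.36 to 3.29). At equal depth 7.65% of members (5.22% to 10.7%) had a Selp UMI, against 1.51% of Vwf-negative cells and 0.151% of cells without endothelial UMIs. Cd63, a granule tetraspanin, had a log2 ratio of 0.48 (-0.01 to 0.97) and Vamp3, a vesicle fusion protein, -0.47 (-0.93 to -0.03). Rab3b had 0 UMIs in the members.

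Haemostasis genes were slightly higher as a sum, 1287 CPM against 1069 CPM, a log2 ratio of 0.27 (0.17 to 0.37). Of 7 genes tested, 1 was at least 2-fold higher, against 1.60% of all genes tested. That gene was Procr, the endothelial protein C receptor, at 74.6 CPM in 55 members against 30.3 CPM (log2 ratio 1.30, 0.80 to 1.80). Plat, tissue plasminogen activator, had a log2 ratio of 0.46 (0.17 to 0.75), Thbd, thrombomodulin, 0.29 (0.14 to 0.43), and Entpd1, which degrades ATP, 0.17 (-0.14 to 0.49). Plau, which encodes urokinase, had 0 UMIs in the members.

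Vascular tone genes were at 3882 CPM against 3532 CPM, a log2 ratio of 0.14 (0.08 to 0.19). Of 7 genes tested, 1 was at least 2-fold higher, against 1.60% of all genes tested. Ptgs1, cyclooxygenase 1, was at 72.7 CPM in 51 members, 9.78 CPM in Vwf-negative cells and 5.21 CPM in aerocyte-like cells, a log2 ratio of 2.89 (2.17 to 3.68). At equal depth 5.10% of members and 0.861% of Vwf-negative cells had a Ptgs1 UMI, but so did 1.79% of cells without endothelial UMIs. Ptgis, prostacyclin synthase, which works downstream of it and was chosen after its values were seen, was at 44.9 CPM against 5.87 CPM (log2 ratio 2.94, 2.00 to 3.99). Nos3, endothelial nitric oxide synthase, had a log2 ratio of 0.63, Npr1, a natriuretic peptide receptor, 0.56, and Ece1, endothelin-converting enzyme, 0.21 (-0.02 to 0.43). Nppc had 0 UMIs in the members and in both other endothelial classes.

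Genes of leukocyte trafficking and inflammation were at 1747 CPM against 1276 CPM, a log2 ratio of 0.45 (0.37 to 0.54). Of 4 genes tested, 2 were at least 2-fold higher, against 1.60% of all genes tested. Icam1, a ligand of leukocyte integrins, was at 431 CPM (392 to 473) in the members, 196 CPM (177 to 216) in Vwf-negative cells and 253 CPM in aerocyte-like cells, a log2 ratio of 1.14 (0.94 to 1.33). Il1r1, the interleukin 1 receptor, was at 70.7 CPM in 55 members against 24.9 CPM in 47 Vwf-negative cells (interval of the log2 ratio 0.97 to 2.05). Jam2, a junctional adhesion molecule, had a log2 ratio of 0.42 (0.25 to 0.60) and Icam2, present on endothelium at rest, 0.06 (-0.08 to 0.19). Il6, chosen after its values were seen, had 30 UMIs in 14 members and 8 UMIs in Vwf-negative cells, with 26.7% of the members' UMIs in 1 cell. Sele, the E-selectin of inflamed venules, had 2 UMIs in the members and 0 in Vwf-negative cells, and Madcam1, Ccl2 and Cxcl9 had 0 in the members. Myeloid genes, in contrast, were lower in the members than in Vwf-negative cells, as given below.

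The matrix list was lower as a sum, 4321 CPM against 5176 CPM (log2 ratio -0.26, -0.31 to -0.21). But the median of its 9 genes tested was 0.07, and 3 of them were at least 2-fold higher, against 1.60% of all genes tested. Of these 3, 2 were genes of elastic fibres. Fbln5, which encodes fibulin 5 of elastic fibres, was at 62.1 CPM in 46 members against 12.2 CPM (log2 ratio 2.34, 1.66 to 3.07), and Ltbp4, which binds latent TGF-beta and fibulin 5, at 77.4 CPM against 33.8 CPM (interval of the log2 ratio 0.72 to 1.68). Bgn, the proteoglycan biglycan, was at 97.5 CPM against 27.9 CPM (log2 ratio 1.81, 1.32 to 2.30), with 28.4% of the members' UMIs in 1 cell. Hspg2, the basement membrane proteoglycan perlecan, was at 61.2 CPM against 112 CPM (log2 ratio -0.87, -1.30 to -0.47). Efemp1 had 0 UMIs in the members and in Vwf-negative cells.

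The angiogenic or tip list, which holds the basement membrane collagens of sprouting vessels, was at 2939 CPM against 3935 CPM, a log2 ratio of -0.42 (-0.48 to -0.36), with none of 8 genes tested past 2-fold. Col4a1 was at 1176 CPM against 1673 CPM and Col4a2 at 805 CPM against 1226 CPM, log2 ratios of -0.51 and -0.61. Insr, the insulin receptor, went the other way with 0.72 (0.22 to 1.22), and Trp53i11 had -0.43. Col4a1 was at 1493 CPM in members with 1 Vwf UMI, 1062 CPM with 2 to 4 and 748 CPM with 5 or more.

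Signalling lists differed little between the classes. The Notch list had a log2 ratio of -0.07 (-0.17 to 0.03), with Hes1, a Notch target, at -0.38 (-0.55 to -0.21), Notch1 at 0.16, Notch4 at 0.29 and Mfng at -0.17, and none of 8 genes tested past 2-fold. The flow response list had 0.01 (-0.05 to 0.06), with the shear-induced factor Klf2 at 0.18 (0.09 to 0.26), Mef2c at -0.39, Txnip at -0.27 and Mef2a at -0.25, and none of 6 past 2-fold. The VEGF and angiopoietin receptor list had -0.06 (-0.13 to 0.02), with Tek, the angiopoietin receptor, at 0.46 (0.25 to 0.66), Kdr, the main VEGF receptor, at -0.36 (-0.55 to -0.17), Nrp1 at -0.34 and Nrp2 at -0.10, and none of 6 past 2-fold. The BMP and TGF-beta list had 0.07 (0.02 to 0.13). Of its 12 genes tested, 1 was at least 2-fold higher, against 1.60% of all genes tested. That gene was Tgfb2, a TGF-beta ligand, at 66.0 CPM against 25.9 CPM (log2 ratio 1.35, 0.81 to 1.89). Smad6, an inhibitor of BMP signalling, had 0.56, Bmpr2 0.22 and Eng 0.20.

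Lipid handling genes were lower, 4081 CPM against 5138 CPM, a log2 ratio of -0.33 (-0.38 to -0.28). Of 9 genes tested, 1 was at least 2-fold lower, against 0.393% of all genes tested. Fabp4, a fatty acid carrier, was at 31.5 CPM in 13 members against 123 CPM (log2 ratio -1.97, -2.54 to -1.44), Fabp5 had -0.58 and Cd36, a fatty acid receptor, -0.44 (-0.53 to -0.35). Lpl, lipoprotein lipase, was in contrast at 248 CPM against 173 CPM (log2 ratio 0.53, 0.29 to 0.76). Antigen presentation genes had a log2 ratio of -0.11 (-0.15 to -0.06), with H2-Ab1 at -0.40, B2m at -0.16, H2-Aa at -0.14 and H2-K1 at -0.12 and none of 7 past 2-fold. Immediate-early and heat shock genes, which tissue dissociation can induce, had 0.13 (0.09 to 0.16), with Atf3 at 0.45 (0.34 to 0.57), Fos at 0.28, Junb at 0.10 and Hspa1b at -0.12 and none of 8 past 2-fold. The cell cycle list was at 33.5 CPM in 7 members against 65.1 CPM in Vwf-negative cells (log2 ratio -0.96, -1.54 to -0.41), with 62.9% of the members' UMIs in 1 cell and no gene at 50 CPM. Of the pan-endothelial genes, Emcn, the sialomucin endomucin of capillaries and veins, had a log2 ratio of -0.60 (-0.76 to -0.43), Fli1 0.14, Sox18 0.13 and Clec14a 0.11, and the list -0.04 (-0.10 to 0.01), none of 10 genes tested being past 2-fold.

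Over all 3308 genes, 53 were at least 2-fold higher and 13 at least 2-fold lower in the members than in Vwf-negative cells. Ranked by the log2 ratio with 10 CPM added to both levels, the 10 leading higher genes were Hbb-bs, Hba-a1, Ibsp, Hba-a2, Hbb-bt, Vcam1, Cpe, Selp, Igfbp5 and Nr2f2. The first 5 came from single cells. One member held 1051 of 1081 Hbb-bs UMIs, 97.2% of the Hba-a1 UMIs, 98.7% of the Hba-a2 UMIs and all 108 Hbb-bt UMIs, and another held all 208 UMIs of Ibsp, a bone matrix protein. The red cell list was thus at 1561 CPM in the members against 12.7 CPM, with 97.6% of its UMIs in 1 member and UMIs in 6 members. Leaving out these 2 members, an alternative chosen after the data were seen, left 46 higher and 13 lower genes.

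Igfbp5, a binding protein of insulin-like growth factors, was at 187 CPM (162 to 215) in 50 members and 29.8 CPM (22.8 to 38.3) in 14 Vwf-negative cells, a log2 ratio of 2.65 (2.23 to 3.09), and its ratio was 3.49 without the top cell of each class. The 10 leading lower genes were Ccl21a, Apoe, S100a8, S100a9, Fabp4, Rgcc, Scgb3a1, Fam167b, Rorb and Hspg2. Rgcc, a regulator of the cell cycle that is high in capillary cells here, was at 121 CPM (101 to 144) in 65 members, 373 CPM (347 to 400) in 310 Vwf-negative cells and 380 CPM in aerocyte-like cells, a log2 ratio of -1.62 (-1.90 to -1.35). At equal depth 8.93% of members, 21.4% of Vwf-negative cells, 22.3% of aerocyte-like cells and 5.28% of cells without endothelial UMIs had an Rgcc UMI. Scgb3a1, a secretoglobin, was at 210 CPM against 419 CPM, Fam167b at 68.8 CPM against 136 CPM and Rorb, a nuclear receptor, at 75.5 CPM against 141 CPM. Apoe was at 10.5 CPM against 108 CPM and at 824 CPM in all other kept cells.

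Markers of other cell types differed between the classes too, and their part in the results was not tested. The myeloid list was at 201 CPM in 81 members against 425 CPM in Vwf-negative cells (log2 ratio -1.08, -1.31 to -0.86) and 13922 CPM in all other kept cells. None of its 3 genes tested was at least 2-fold higher, and 2 were at least 2-fold lower, against 0.393% of all genes tested. These were S100a8 at 19.1 CPM against 121 CPM and S100a9 at 19.1 CPM against 118 CPM. Without the limit on Ptprc their log2 ratios turned to 1.04 and 1.06. Lyz2 had a log2 ratio of -0.05. The epithelial list was at 942 CPM against 702 CPM (log2 ratio 0.42, 0.31 to 0.54), with 83.5% of the members' UMIs in 1 cell and 68.5% of the Vwf-negative UMIs in 1 cell. Sftpc, a surfactant protein, had a log2 ratio of 0.35, Sftpa1 0.66 and Sftpb 0.49, and without the top cell of each class these were -1.14, -0.87 and 1.03. The fibroblast list was at 135 CPM in 4 members against 74.8 CPM (log2 ratio 0.85, 0.51 to 1.19), with 80.1% of the UMIs in 1 member, and Col1a1 had 51 of its 55 UMIs in 1 member, giving a log2 ratio of 2.29 with it and -0.49 without the top cell of each class.

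The pericyte or smooth muscle list was at 26.8 CPM in 12 members against 21.0 CPM, and the defining genes Acta2 and Cnn1 had 0 UMIs in the members. The platelet or megakaryocyte list, which matters because platelets also carry von Willebrand factor and P-selectin, was at 13.4 CPM in 13 members against 15.2 CPM in Vwf-negative cells and 46.3 CPM in all other kept cells, with 6 of its 8 genes, Ppbp, Gp9, Gp1bb, Gp1ba, Tubb1 and Treml1, at 0 UMIs in the members. T or NK genes were at 9.56 CPM against 17.6 CPM and B cell genes at 30.6 CPM against 28.4 CPM, and the 3 mesothelial genes, Msln, Upk3b and Wt1, had 0 UMIs in both classes. A doublet caller, Scrublet, marked 1 of 418 members and 11 of 1036 Vwf-negative cells.

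**Figure D3:**
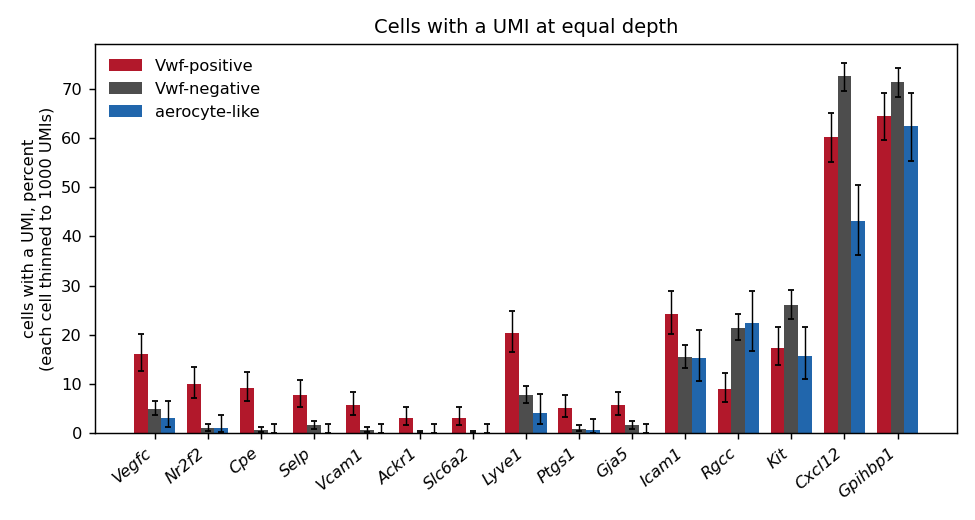
Share of cells with at least 1 UMI of each gene after every cell was thinned to 1000 UMIs, in 392 Vwf-positive, 929 Vwf-negative and 197 aerocyte-like cells, with exact binomial 95% intervals for counting error. Vein genes and Selp were found in 3.06% to 16.1% of Vwf-positive cells and in at most 4.84% of Vwf-negative cells, while Gpihbp1 was found in 62.4% to 71.4% of cells of the 3 classes.

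Without thinning, the shares in members and Vwf-negative cells were 17.5% and 2.80% for Nr2f2, 29.4% and 9.07% for Vegfc, 12.7% and 2.51% for Selp, 12.2% and 1.93% for Ptgs1, 15.6% and 29.9% for Rgcc, and 81.3% and 82.8% for Gpihbp1. The order was the same with and without thinning for each of these 6 genes.

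Levels shifted with the number of Vwf UMIs per cell. The vein list was at 322 CPM (298 to 348) in cells with 0 Vwf UMIs, 564 CPM (496 to 640) with 1, 961 CPM (867 to 1062) with 2 to 4 and 2831 CPM (2611 to 3064) with 5 or more, with no overlap between neighbouring intervals. The median depth was 1806.5, 2032, 2090 and 2923 UMIs in the same order, and at 1000 UMIs per cell the vein levels were 290, 599, 1039 and 2883 CPM. Nr2f2 went from 24.5 CPM at 0 to 55.3, 104 and 319 CPM, Ackr1 from 0 UMIs to 4.61, 40.5 and 217 CPM, and Selp from 25.4 CPM to 111, 210 and 259 CPM. Icam1 went from 196 CPM to 288, 417 and 743 CPM.

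The general capillary and artery lists were lowest in the cells with most Vwf. The general capillary list was at 4022 CPM with 0 Vwf UMIs, 4006 CPM with 1, 3522 CPM with 2 to 4 and 2120 CPM with 5 or more, and Gpihbp1 at 1590, 1569, 1421 and 610 CPM. The artery list was at 4886, 5626, 5221 and 2688 CPM, the Weibel-Palade body list without Vwf at 2661, 2380, 2061 and 1284 CPM, and the angiogenic or tip list at 3935, 3511, 2723 and 2189 CPM. Rgcc went from 373 CPM to 166, 119 and 36.9 CPM. Gja5 had no such order, at 20.1, 39.2, 91.0 and 73.9 CPM, and the pan-endothelial list stayed between 3602 and 4161 CPM. The fibroblast list was at 74.8, 25.3, 43.0 and 522 CPM, and all 113 of its UMIs in the 61 cells with most Vwf were in 1 cell.

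**Figure D4:**
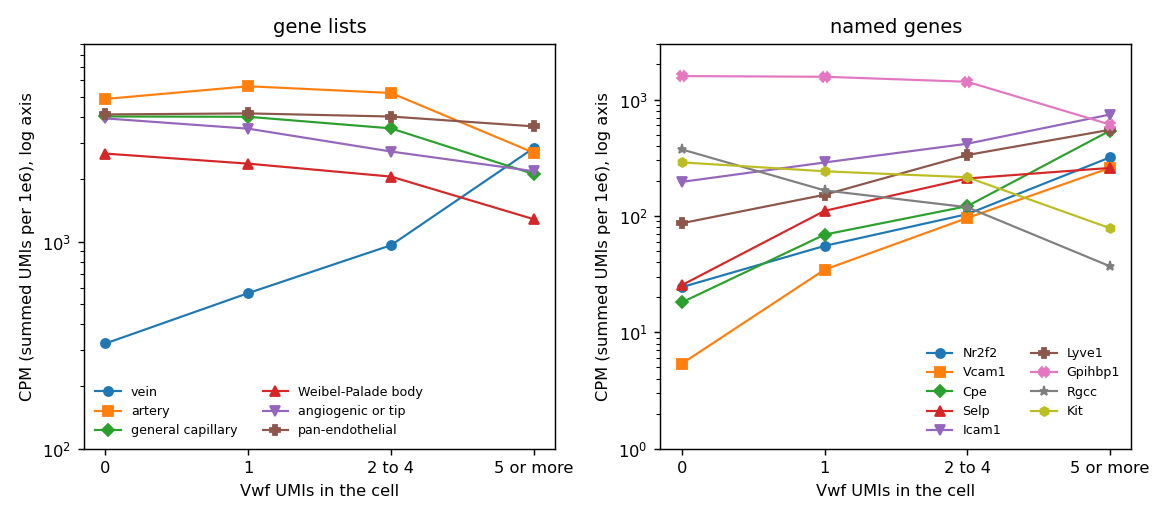
Summed UMIs of a class as CPM (log axis) of gene lists (left) and named genes (right) in endothelial cells with 0, 1, 2 to 4 and 5 or more Vwf UMIs (1036, 187, 170 and 61 cells). The vein list climbed from 322 to 2831 CPM while the artery, general capillary, Weibel-Palade body and angiogenic lists were lowest in the cells with 5 or more.

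Members varied among themselves in vessel genes. By 2 or more UMIs of a list, 23 members (5.50%) were marked by vein genes alone, 225 (53.8%) by artery genes alone, 2 by lymphatic genes alone, 149 (35.6%) by several lists and 19 (4.55%) by none. The artery mark was about as frequent in Vwf-negative cells, as given above, so the 225 cells are not called arterial. At equal depth 24.2% of members (20.1% to 28.8%) had 2 vein UMIs, against 4.41% of Vwf-negative cells (3.19% to 5.94%) and 1.02% of aerocyte-like cells, and without thinning the shares were 36.6%, 13.0% and 10.4%. Seen from the other side, 153 of the 288 vein-marked cells (53.1%, 47.2% to 59.0%) among endothelial cells with at most 1 UMI of Car4 and Ednrb were Vwf-positive. Of all 1454 endothelial cells under that limit, marked or not, 418 (28.7%) were Vwf-positive. Neither share was taken at equal depth. Of 76 members with 2 lymphatic UMIs, 55 also had 2 vein UMIs. Lyve1 supplied 87.3% of the members' UMIs of the lymphatic list, so the 76 cells are not called lymphatic.

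The 153 vein-marked members (median 2594 UMIs) differed from the other 265 (median 1892 UMIs) in genes that no list held. Igfbp5 was at 388 CPM in 47 marked members and 5.47 CPM in 3 others, a log2 ratio of 6.15 (4.58 to 8.44). Ch25h, cholesterol 25-hydroxylase, was at 386 CPM against 21.9 CPM, Lcn2, the iron-binding lipocalin 2, at 233 CPM against 10.9 CPM and Ptgs2, the inducible cyclooxygenase 2, at 151 CPM against 5.47 CPM. Mgll, monoacylglycerol lipase, was lower at 98.5 CPM against 395 CPM, Igfbp3 at 16.1 CPM against 108 CPM and Scgb3a1 at 86.5 CPM against 323 CPM. Gdpd3 was lower too, at 22.1 CPM against 111 CPM. The genes named here are a selection from the leading genes in each direction. Ibsp, Wif1, Slc34a2 and Scd1 also ranked among the higher genes and Hist1h2ap among the lower ones, but in each case 1 cell held nearly all UMIs of the side with the larger sum.

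The 23 members marked by vein genes alone and the 225 marked by artery genes alone are subsets of these 153 and 265 cells, so the values below are not independent of those above, and the first class is small. The 5 genes with the highest ratios were Lcn2 (510 CPM against 6.38 CPM), Igfbp5 (378 against 4.25 CPM), Ch25h (623 against 19.1 CPM), Kcnh1 (170 against 4.25 CPM) and Ptgs2 (113 against 4.25 CPM). In UMIs these were 27 against 3, 20 against 2, 33 against 9, 9 against 2 and 6 against 2. The intervals of the log2 ratio were wide, at 3.05 to 8.57 for Kcnh1 and 2.25 to 8.08 for Ptgs2. Igfbp5 rested on 3 cells with 65.0% of its UMIs in 1, and Ptgs2 on 1 cell, whereas Ch25h was found in 11 of the 23 and Lcn2 in 8. Mgll, Scgb3a1, 8430408G22Rik, Hbegf, a growth factor of the EGF family, and Igfbp3 had 0 UMIs in the 23 and between 123 and 415 CPM in the 225. The 23 cells hold few UMIs, so 0 UMIs sets a weak limit. The upper ends of the log2 ratio intervals ran from -2.56 for Mgll to -0.78 for Igfbp3, which was found in 18 of the 225. In the whole class, Ch25h was at 195 CPM against 46.5 CPM in Vwf-negative cells, Lcn2 at 117 CPM against 23.5 CPM and Ptgs2 at 74.6 CPM against 4.40 CPM, but Ptgs2 was at 103 CPM and Lcn2 at 226 CPM in all other kept cells.

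Against aerocyte-like cells the members stood farther apart. Of 3536 genes tested, 139 were at least 2-fold higher (3.93%) and 137 at least 2-fold lower (3.87%). The vein list was at 1183 CPM against 201 CPM, a log2 ratio of 2.55 (2.28 to 2.84), with all 8 genes tested at least 2-fold higher. The artery list was also higher here, with a log2 ratio of 0.73 (0.65 to 0.81), and Cxcl12 was at 2858 CPM against 1278 CPM. The 5 leading higher genes were Hbb-bs and Hba-a1, which 1 member carried, and Cpe, Selp and Vcam1, with 1, 0 and 0 UMIs in aerocyte-like cells. Selp was at least 34.3-fold and Vcam1 at least 20.0-fold higher. The 5 leading lower genes were Fibin, at least 57.5-fold lower, Tbx2, a transcription factor (log2 ratio -4.29), Chst1 (-4.97), Emp2 (-3.50) and AW112010 (-3.66). The general capillary list did not differ by more than counting error, with a log2 ratio of -0.06 (-0.14 to 0.02).

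Against all other kept cells, most of which were of other types, 877 of 3749 genes (23.4%) were at least 2-fold higher and 600 (16.0%) at least 2-fold lower. Besides Hbb-bs, the leading genes were Lyve1 (log2 ratio 5.50), Vegfc (5.37), Ptprb, an endothelial phosphatase (4.77), Jam2 (4.38), Cavin2, a caveolar protein (4.28), Aqp1, a water channel (4.23), Tmem252 (633 CPM against 34.5 CPM), Cxcl12 (4.14) and Calcrl, the adrenomedullin receptor (4.11). Set against Vwf-negative cells, Ptprb was at 1652 CPM against 967 CPM (log2 ratio 0.77, 0.68 to 0.87). The artery list had the highest ratio of the endothelial lists here, 4.01 (3.97 to 4.06), and the vein list 3.21 (3.12 to 3.30), with 9 of 9 and 7 of 8 genes tested at least 2-fold higher. Antigen presentation genes were lower, with a log2 ratio of -2.00 and 5 of 8 genes tested at least 2-fold lower.

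The engineered genes were read in the members as well. TdTomato, the Cre reporter, was at 285 CPM (253 to 319) in 101 members, with 114 of its 298 UMIs in 1 cell, at 169 CPM in Vwf-negative cells and at 1146 CPM in all other kept cells. GFP, part of the gene trap, had 0 UMIs in the members and 1 in Vwf-negative cells, against 3.75 CPM in all other kept cells. Stk11, the gene of LKB1, had 10 UMIs in 10 members, 9.56 CPM (4.58 to 17.6), against 15.2 CPM in Vwf-negative cells and 21.5 CPM in all other kept cells, and the difference to Vwf-negative cells was not detectable at this depth (log2 ratio -0.67, -1.86 to 0.40). Without a mouse for each cell, none of these levels could be set against restoration of Lkb1.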

How the data were processed

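Viable cells sorted from dissociated lung tumors of 4 mice were profiled with droplet-based single-cell RNA sequencing of transcript 3′ ends. The authors deposited a single matrix whose values are raw UMI counts. Cell Ranger 3.0.2 produced it on mm10, to which GFP and TdTomato were added, and it covers 31055 features and 20351 cells at a median of 1960 UMIs (lowest 500). A further allele that all 4 mice share is not reported here. The matrix has no barcode or mouse label, so whether libraries shared barcodes or were thinned when joined was not examined. Columns that belong to other samples numbered 0.

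Cells with under 200 genes (52 cells) or above the 98th percentile of the mitochondrial share (13.4%) were left out, and classes were cut by UMI counts as the report states, with no clustering. Counts were summed per class, given as CPM, and compared as log2 ratios, with exact Poisson, Clopper-Pearson and conditional binomial 95% intervals (Python 3.11.15, numpy 2.4.6, scipy 1.17.1, pandas 2.3.3, matplotlib 3.10.9). The mice give the class no replicate, so there were no tests. A gene counted as higher or lower had at least 50 CPM in either class and a ratio of at least 2, with a sum of 0 set to 3 UMIs. The 8 genes of the rule were left out. Calculations were tested on simulated data. Thinning used the random seed 1. Doublets were scored with Scrublet in scanpy 1.11.5 (expected rate 6.0%), which marked 181 of 20299 cells (0.892%) and removed none.

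The members and the 29 lists (274 genes, all in the feature table) were chosen with earlier results of these data known. The text names up to 4 genes per list with the largest absolute log2 ratio among those at 50 CPM or more, list genes at 0 UMIs, the 10 leading genes in each direction against Vwf-negative cells at 100 CPM or more (10 CPM added), 5 in each direction against aerocyte-like cells, 10 against all other cells, 5 in each direction between members marked by vein or artery genes alone, the genes of the rule, Stk11, TdTomato and GFP. The comparison of vein-marked members with the other members falls outside this rule, and its named genes are a selection from the leading genes in each direction. Alternatives changed the cell limits, the Vwf minimum, the comparator, depth and the CPM minimum, left out Scrublet calls or cells with 2 lymphatic UMIs, or averaged CPM per cell. Another 3, chosen after seeing the data, left out the top cell of each class, left out members that held over 50% of a leading gene, or asked for 5 Vwf UMIs.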

Additional observations from a re-analysis of the deposited data

How the results depend on the processing

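Of 101 alternative values for the member share, the vein, artery, general capillary and Weibel-Palade body lists and the counts of genes past 2-fold, 67 stayed within the counting interval (within 1.5 times for counts) and 34 moved, and 0 changed the sign of a ratio whose interval left out 0. The cause was not tested beyond what each setting sets by construction. The share of kept cells was 2.43% with at least 500 genes, 1.16% with at least 2 Vwf UMIs, 1.53% with at least 8 endothelial UMIs, 1.74% without cells with 2 lymphatic UMIs and 0.307% with at least 5 Vwf UMIs. With at least 2 Vwf UMIs (231 members) the log2 ratios were 2.33 for the vein, -0.18 for the artery, -0.41 for the general capillary and -0.58 for the Weibel-Palade body list, with 95 genes higher and 34 lower. With at least 5 (61 members, chosen after seeing the data) they were 3.13, -0.86, -0.92 and -1.05, with 240 genes higher and 193 lower. Without cells with 2 lymphatic UMIs they were 1.51, 0.11, -0.085 and -0.32. Averaging CPM per cell gave 1.69 for the vein, 0.10 for the artery and -0.13 for the general capillary list, and thinning to 1000 UMIs gave 0.065 for the artery and -0.088 for the general capillary list and 23 lower genes. With all endothelial cells at 0 Vwf UMIs as comparator the artery list was at 0.13, the Weibel-Palade body list at -0.54 and 23 genes were lower. Without the Ptprc limit the general capillary list was at -0.30, with 0 UMIs of Car4 and Ednrb 20 genes were lower, and at 25 CPM 107 genes were higher and 38 lower.

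Of 1329 alternative log2 ratios for 89 named genes with UMIs in both classes, 1136 stayed within the interval, 169 moved and 24 changed sign. Sftpc turned to -1.06 without cells above 2713 genes, -3.04 with 0 UMIs of Car4 and Ednrb, -0.017 with all Vwf-free endothelial cells, -0.17 thinned, -0.39 averaged per cell, -1.14 without the top cell of each class and -3.30 with at least 5 Vwf UMIs. Sftpa1 turned to -0.89, -2.95, -0.43, -0.22, -0.87 and -2.34 under the same settings except all Vwf-free cells, and Sftpb to -0.89 with 0 UMIs of Car4 and Ednrb and -3.72 with at least 5 Vwf UMIs. Col1a1 turned to -2.18 without cells with 2 lymphatic UMIs, -0.49 without the top cell of each class and -1.47 without the members that held over 50% of a leading gene. Without the Ptprc limit S100a8 turned to 1.04, S100a9 to 1.06 and H2-Ab1 to 0.084. Vamp3 turned to 0.043 when thinned, and Efnb2 to -0.29 and Plat to -0.024 with at least 5 Vwf UMIs. The shares of members with a UMI of 8 genes rose with the depth kept, for Vegfc from 9.81% at 500 UMIs to 29.4% without thinning. No paired analysis was possible because the matrix gives no mouse or replicate for any cell.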
